A study of Apis mellifera with 13 samples.

Results

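The yellow family of the honey bee *Apis mellifera* was followed in the antennae of workers with different tasks and ages. Its members were taken as every gene whose symbol begins with Y- in the deposited tables, without regard to the values. This gave 10 genes of 13414: Y-y (GB48794), Y-f (GB45951), Y-b (GB51760), Y-x1 (no Beebase ID), Y-x2 (GB55729), Y-e (GB55202), Y-e3 (GB55203), Y-h (GB55216), Y-g (GB55171) and Y-g2 (GB55201). Royal jelly protein genes (Mrjp) descend from this family but were not counted as members.

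Yellow proteins are secreted insect proteins, and the family takes its name from the *Drosophila* gene yellow, which is needed for black melanin in the cuticle. Melanin and the tanned cuticle are both built from tyrosine by way of dopa and dopamine, and in *Drosophila* the yellow-f proteins speed a late step of that chain, the conversion of dopachrome. In the bee lineage a yellow gene was duplicated into the royal jelly protein genes, whose best known products are made in the food glands of nurses.

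VSH bees were workers seen opening, enlarging or emptying *Varroa*-infested brood cells, that is, showing *Varroa* sensitive hygiene (VSH), and NVS (non-VSH) bees were workers watched in the same hive and never seen at these tasks. Both were marked bees from a VSH colony, with a mean age of 7.5, 9.75, 12.5 and 17 days in VSH libraries 1 to 4 and of 7.5, 9.5, 12.25 and 17.5 days in NVS libraries 1 to 4. Foragers (FOR, libraries 2 and 3) were caught at the entrance with pollen loads and nurses (NUR, libraries 1 to 3) while tending young larvae, both in hives the study calls standard, with no age in the labels. Each of the 13 libraries pools RNA from the flagella of several bees, with 4 pairs of antennae in the labels. The methods instead describe joining a pair of pools of that size into each VSH or NVS sample. They give the same number of antennae for each FOR or NUR sample as for these joined pools.

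Values are pseudo-counts, that is, read numbers per gene brought to 1 library size by the authors. VSH and NVS bees share 1 table and foragers and nurses another, so values are compared within a table only. Columns summed to 1.92e+07 to 2.03e+07 in VSH and NVS libraries and to 3.36e+07 to 3.47e+07 in FOR and NUR libraries, sums that do not show sequencing depth. The 7 antennal markers found, among them Or2, the co-receptor of odorant receptors, summed to 723401 to 911331 in VSH, 680972 to 902517 in NVS, 1252483 to 1275701 in FOR and 1327359 to 1396812 in NUR libraries. NUR2 stood apart from the other libraries of its table, at 58.4 on a first principal component holding 52.3% of the variance, where NUR1 had 0.460 and NUR3 2.98. VSH4 stood apart in muscle markers, which summed to 1079 there, against 37.0 to 84.4 in the other VSH and 19.6 to 75.6 in the NVS libraries, and in fat body and haemolymph markers, at 4756 against 1491 to 1858 and 1117 to 1482.

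In a later assembly (Amel_HAv3.1), used for gene order only, 5 of the members lie in 1 cluster with the 9 royal jelly protein genes. Y-g, Y-g2, Y-e and Y-e3 stand side by side at one end, Mrjp3 follows Y-e3, and Y-h closes the other end next to Mrjp9, with 1 other coding gene, LOC102654393, among the Mrjp genes. The other 5 members lie on 5 further chromosomes. In that assembly, without regard to strand, Y-y overlaps LOC100578965 and Y-x2 overlaps LOC410353, so that their counts may be less certain than those of other members. The authors counted reads on an earlier assembly, and an effect of these overlaps on the counts was not tested.

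Of the 10 genes, 8 had enough signal to be tested, which meant a pseudo-count sum of 20 or more in the VSH and NVS table and of 15 or more in the FOR and NUR table. The filter left out the same pair of genes in both tables. Y-g was listed at 0 in all 13 libraries. Y-g2 reached 0.751 at most in VSH, 1.06 in NVS, 0 in FOR and 3.35 in NUR libraries. In *Drosophila* the genes of these names act in the ovary on the eggshell. The levels of the tested members were not corrected for transcript length, so they are not ranked against each other.

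VSH and NVS bees were compared to ask whether antennal expression of the family goes with hygienic behaviour. No yellow gene passed the test. Of the 8 members tested in limma, 0 reached an adjusted p under 0.05, beside 0.0392% of all 10204 genes tested. Unadjusted, 0 reached it, beside 11.2% of all genes. The paper's edgeR test on read counts called far more genes in this comparison, so few calls in limma need not mean few differences. No member separated the groups without overlap, which 6.13% of all genes did (2.86% with VSH higher and 3.26% with VSH lower). The median log2 fold change (VSH over NVS, on log2 of the pseudo-count plus 1) was 0.01 over the members and -0.0024 over all genes, with 4 members above 0 and 4 below, beside 49.4% of all genes above 0. In the fit that blocks on the age-matched pairs, 0 members passed as well and 0 had an unadjusted p under 0.05, while 1.24% of all genes passed. Since each library holds RNA of all cells of the flagella, less RNA per cell and fewer cells of a type cannot be told apart.

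Y-x1 had the smallest standard error of the tested members, 0.065 on the log2 scale. It stood at 6123, 6104, 6248 and 5998 in VSH libraries 1 to 4 and at 6296, 6272, 6088 and 5394 in NVS libraries 1 to 4. The groups overlapped, and the log2 fold change was 0.03 with a 95% confidence interval from -0.11 to 0.17 (adjusted p = 0.904). Y-f, named after the dopachrome conversion genes of *Drosophila*, stood at 1955, 2603, 2713 and 2720.5 in VSH libraries and at 2482, 2406, 2823 and 2285 in NVS libraries. VSH1 was the lowest of all 8, and the log2 fold change was -0.0092 (interval -0.24 to 0.22, adjusted p = 0.984).

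Y-y, the bee counterpart of *Drosophila* yellow, averaged 332 ± 61.8 in VSH and 364 ± 66.1 in NVS bees (SD, n = 4 each). Its libraries lay at 338, 345, 249 and 398 in VSH and 324, 412, 293 and 428 in NVS bees, with the lowest value of both groups in pair 3 and the highest in pair 4. The VSH library was the lower in 3 of 4 pairs, and the log2 fold change was -0.13 (interval -0.48 to 0.21, adjusted p = 0.782), or -0.0017 without VSH3 and -0.23 without NVS3. Y-b stood at 571, 713, 616 and 885 in VSH libraries and at 611, 617, 643 and 698 in NVS libraries. VSH4 was the highest, and the log2 fold change of 0.10 (interval -0.16 to 0.36, adjusted p = 0.795) was -0.025 without it. For these 4 genes the intervals exclude a difference of 0.5 or more on the log2 scale in either direction.

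Y-e had the largest fold change of the members, with a wide error. It was at 32.5, 11.9, 17.0 and 6.51 in VSH libraries 1 to 4 and at 10.2, 7.61, 2.86 and 9.70 in NVS libraries 1 to 4. VSH1 was by far the highest library and VSH4 lay within the NVS range, so that the VSH library was the higher in 3 of 4 pairs. The log2 fold change was 0.97 (standard error 0.52, interval -0.16 to 2.10, adjusted p = 0.507), or 0.60 without VSH1 and 1.32 without VSH4. In the silkworm a yellow-e mutation alters the colour of the larval cuticle.

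Y-x2 was at 13.8, 14.1, 5.70 and 48.5 in VSH libraries and at 31.1, 11.2, 28.2 and 18.6 in NVS libraries. Both the lowest and the highest of the 8 libraries were VSH, and its log2 fold change of -0.40 (interval -1.56 to 0.76, adjusted p = 0.812) was -0.93 without VSH4 and 0.03 without VSH3. The high value of VSH4 fell in the library with the raised muscle and fat body markers, whose part in it was not tested. Y-e3, which stands next to Mrjp3, was at 2.62, 7.57, 2.57 and 4.84 in VSH and 5.25, 4.22, 5.03 and 1.18 in NVS libraries, with a log2 fold change of 0.15 (interval -1.11 to 1.40, adjusted p = 0.945). Y-h was at 32.0, 52.4, 68.9 and 70.8 in VSH and 38.6, 65.7, 86.0 and 66.4 in NVS libraries, with a log2 fold change of -0.20 (interval -0.85 to 0.44, adjusted p = 0.834). The groups overlapped widely in all 3 genes.

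**Figure D1:**
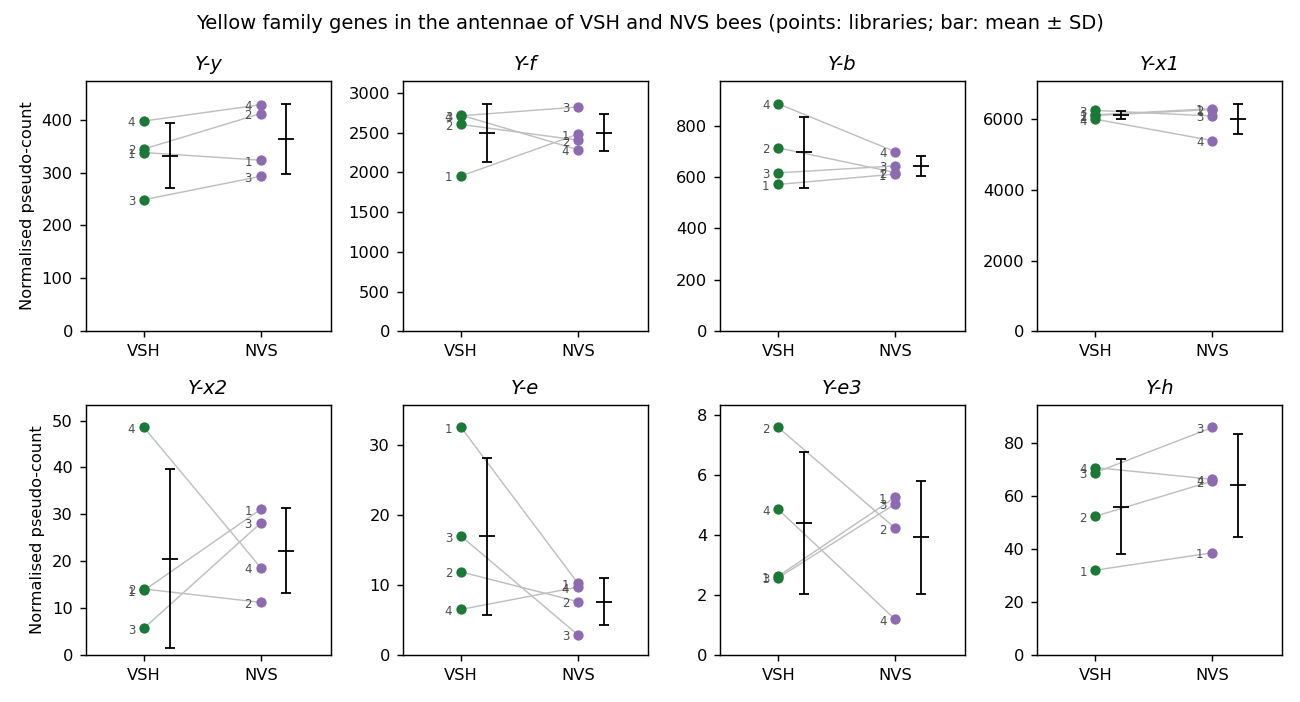
Pseudo-counts of the 8 tested yellow genes in the VSH libraries (left) and NVS libraries (right) of each panel. Points are libraries with their number beside them, grey lines join age-matched libraries and bars give the mean ± SD (n = 4); the groups overlap in every panel.

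**Figure D2:**
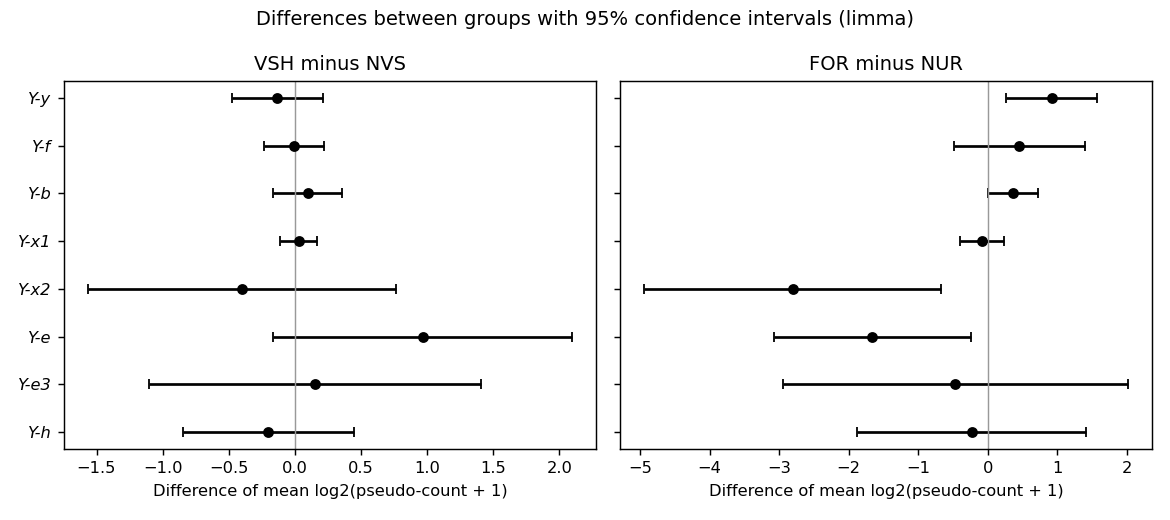
Difference of mean log2(pseudo-count + 1) for each tested yellow gene, VSH minus NVS on the left and FOR minus NUR on the right, with 95% confidence intervals from limma. All 8 intervals include 0 on the left, while on the right those of Y-y, Y-e and Y-x2 lie to one side of it, before adjustment over all genes.

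Mean age was then used as a term beside the group, to ask whether the family follows the age of workers inside the hive. Of the 8 members, 0 passed an adjusted p of 0.05 and 2 had an unadjusted p under 0.05, beside 0.147% and 12.3% of all genes. The members with the smallest p were Y-b and Y-h, and both had positive slopes. The median slope was 0.019 per day on the log2 scale over the members and 0.00054 over all genes, with 5 members above 0 and 3 below, beside 51.2% of all genes above 0.

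Y-b had a slope of 0.037 log2 units per day (standard error 0.013, interval 0.0085 to 0.065, adjusted p = 0.283). In NVS bees its values followed age in full order, at 611, 617, 643 and 698 for 7.5, 9.5, 12.25 and 17.5 days. In VSH bees the oldest library, at 885, was the highest, and without it the slope was 0.020. That library, VSH4, is the one with the raised muscle and fat body markers, whose part in the slope was not tested. Y-h had a slope of 0.084 per day (standard error 0.034, interval 0.010 to 0.16, adjusted p = 0.335), which ranged from 0.059 without VSH1 to 0.13 without NVS4. Its youngest library was the lowest in both groups, at 32.0 in VSH1 and 38.6 in NVS1, and the library of 12.25 days (NVS3, at 86.0) was the highest of all.

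The other positive slopes were 0.067 for Y-x2 (adjusted p = 0.747), which was -0.059 without VSH4, 0.022 for Y-y (adjusted p = 0.715), which was 0.0053 without VSH4, and 0.015 for Y-f (adjusted p = 0.697), which was -0.0033 without VSH1 and 0.042 without NVS4. Slopes were negative for Y-e (-0.093 per day, interval -0.24 to 0.055, adjusted p = 0.616), Y-e3 (-0.066, adjusted p = 0.777) and Y-x1 (-0.013, interval -0.031 to 0.0040, adjusted p = 0.529). Leaving out 1 library moved the Y-e slope to -0.037 without VSH4 and to -0.22 without NVS4 (unadjusted p = 0.0155, adjusted p = 0.544), the Y-e3 slope to 0.019 without NVS4 and the Y-x1 slope to -0.0040 without NVS4. The Y-e slope was -0.19 in VSH bees, where the youngest library was the highest at 32.5 and the oldest the lowest at 6.51, and -0.0077 in NVS bees. The difference of the slopes (VSH minus NVS) was -0.18 with an interval from -0.48 to 0.11 (adjusted p = 0.999). No gene of the 10204 passed an adjusted p of 0.05 for a difference of slopes in limma, with 2.86% of genes at an unadjusted p under 0.05 and none of the members among them. Y-f came closest of the family, with slopes of 0.042 in VSH and -0.0086 in NVS bees (unadjusted p = 0.0683, adjusted p = 0.999).

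**Figure D3:**
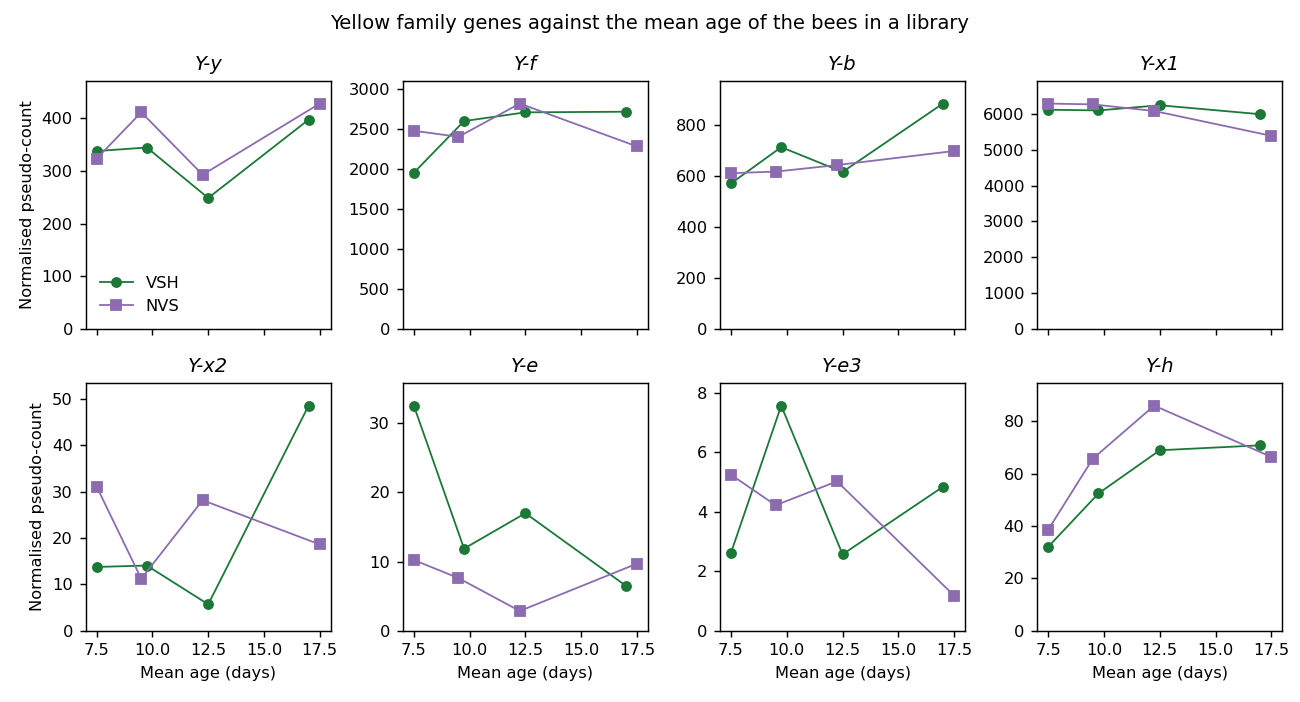
Pseudo-counts of the 8 tested yellow genes against the mean age of the bees in a library in days, with VSH libraries as circles and NVS libraries as squares. Y-h is lowest in the youngest library of both groups, and Y-e is highest in VSH1, at 32.5 and 7.5 days.

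Foragers and nurses were compared to ask whether the family follows the main division of labour between workers. Again no member passed the adjusted threshold. The members' log2 fold changes ran from -2.80 to 0.92, against -0.40 to 0.97 between VSH and NVS bees. The highest here, 0.92 for Y-y, lay above 92.9% of all genes, while 0.97 for Y-e lay above 98.7% between VSH and NVS bees. The tables also differ in library numbers and normalisation, so the wider range is not read as a result about the family. Of the 8 members, 0 passed an adjusted p of 0.05 in limma, beside 0.0958% of all 10436 genes tested. Here too the paper's edgeR test called far more genes. An unadjusted p under 0.05 was reached by 3 members (Y-y, Y-e and Y-x2), beside 13.0% of all genes. In 4 members the groups did not overlap (Y-y and Y-b higher in foragers, Y-e and Y-x2 lower), a separation that 32.6% of all genes showed (16.1% higher and 16.5% lower in foragers). The median log2 fold change (FOR over NUR) was -0.16 over the members and 0.00037 over all genes, and 3 members were above 0 and 5 below, beside 50.1% of all genes above 0.

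Y-x2 had the largest fold change. It was at 1.66 and 10.5 in FOR2 and FOR3, against 16.7, 79.8 and 39.0 in NUR1, NUR2 and NUR3. Each forager library was below each nurse library, although FOR3 lay close to NUR1. The log2 fold change was -2.80 (standard error 0.90, interval -4.94 to -0.67, adjusted p = 0.297), and it was -2.27 without NUR2, -1.75 without FOR2 and -3.86 without FOR3.

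Y-e was at 12.5 and 22.1 in the FOR libraries, against 35.8, 104 and 44.0 in the NUR libraries. The groups did not overlap, and NUR2 was the highest library for this gene as it was for Y-x2. The 5 libraries fell in the same order for both genes (FOR2, FOR3, NUR1, NUR3, NUR2 from low to high). The log2 fold change was -1.66 (standard error 0.60, interval -3.07 to -0.24, adjusted p = 0.336) and -1.20 without NUR2. The unadjusted p was 0.0654 for Y-e and 0.0419 for Y-x2 with NUR2 left out, and 0.147 and 0.123 with FOR2 left out.

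Y-y was at 718 and 799 in the FOR libraries, against 392, 293 and 559.9 in the NUR libraries. Both forager libraries were above all 3 nurse libraries, of which NUR2 was the lowest. The log2 fold change was 0.92 (standard error 0.28, interval 0.26 to 1.57, adjusted p = 0.279) and 0.69 without NUR2. Y-b was at 1297 and 1695 in FOR and at 1113, 1099 and 1251 in NUR libraries. The gap between FOR2 and NUR3 was small, and the log2 fold change was 0.36 (interval -0.00083 to 0.73, adjusted p = 0.384), or 0.17 without FOR3 and 0.56 without FOR2.

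The other tested members overlapped between foragers and nurses. Y-f was at 5520.3 and 6061 in FOR and at 5094, 2271 and 6510.1 in NUR libraries. NUR2 was far below the others, and the log2 fold change of 0.45 (adjusted p = 0.681) was 0.0064 without that library and 0.77 without NUR3. Y-x1 was at 11066 and 12801 in FOR and at 11275, 12596 and 14149.8 in NUR libraries, a log2 fold change of -0.08 with an interval from -0.40 to 0.23 (adjusted p = 0.833). Its standard error, 0.13, was again the smallest of the 8.

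With the replicate number as a block, where only libraries 2 and 3 have a partner in both groups, no member passed either, and 0.0575% of all genes did. The block log2 fold change was -3.36 for Y-x2 (adjusted p = 0.219), -1.96 for Y-e (adjusted p = 0.279) and 0.90 for Y-y (adjusted p = 0.215).

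**Figure D4:**
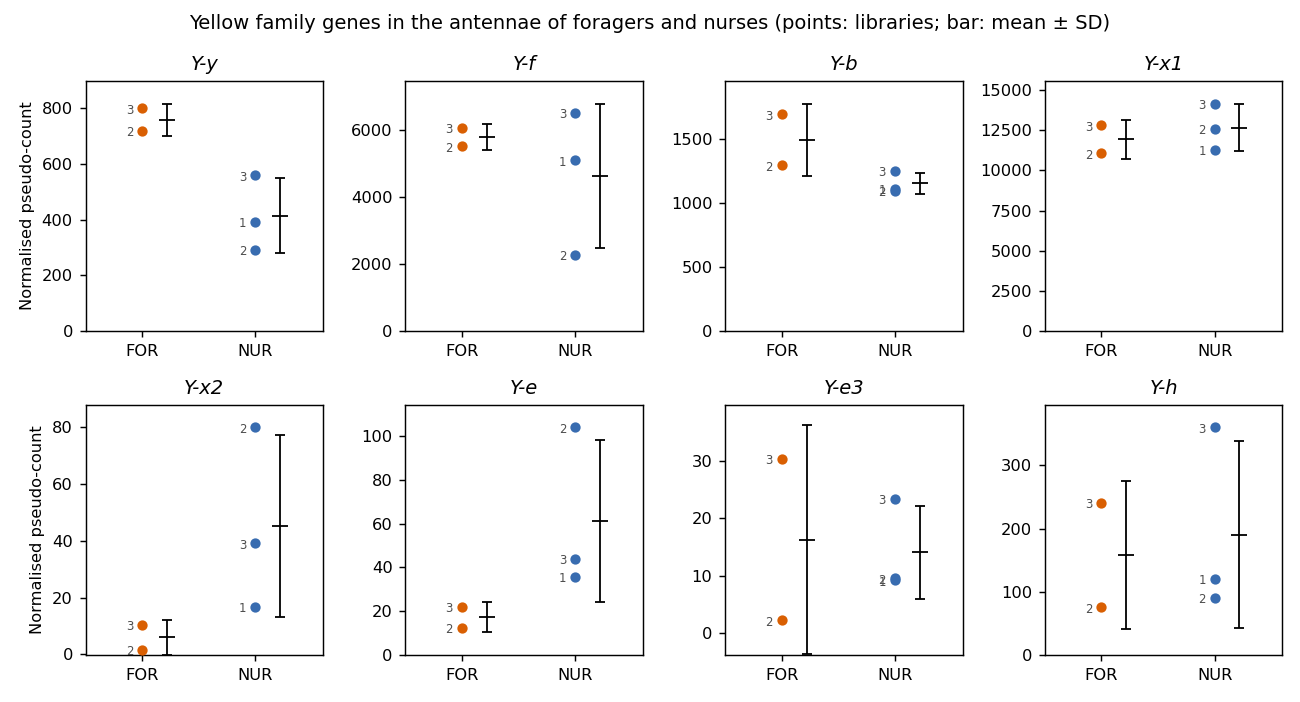
Pseudo-counts of the 8 tested yellow genes in the FOR libraries (left, n = 2) and NUR libraries (right, n = 3) of each panel. Points are libraries with their number beside them and bars give the mean ± SD; FOR and NUR do not overlap in Y-y, Y-b, Y-x2 and Y-e, and NUR2 is the lowest library in Y-f (2271) and the highest in Y-e (104).

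Y-e3 and Y-h, the members that flank the royal jelly protein genes, were highest in FOR3 and NUR3 and overlapped between foragers and nurses. Y-h was at 75.5 and 241 in FOR2 and FOR3, against 121, 90.8 and 360.2 in NUR1, NUR2 and NUR3. FOR3 and NUR3 were above the other 3 libraries, and the log2 fold change of -0.23 (interval -1.87 to 1.42, adjusted p = 0.926) was 0.60 without FOR2 and 0.36 without NUR3. Y-e3 was at 2.19 and 30.4 in the FOR libraries, against 9.22, 9.54 and 23.5 in the NUR libraries. FOR3 and NUR3 were again the highest, with a log2 fold change of -0.47 (interval -2.95 to 2.02, adjusted p = 0.891) that was 1.18 without FOR2 and -2.11 without FOR3.

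The royal jelly protein genes between them had the same libraries on top. Mrjp5 was at 0 and 2388 in FOR2 and FOR3, against 0, 8.66 and 2149 in NUR1, NUR2 and NUR3, and Mrjp8 was at 559 and 2898, against 234, 228 and 1934. FOR3 and NUR3 were both above the other 3 libraries in 8 of the 9 Mrjp genes and in 4 of the 8 tested yellow genes (Y-e3, Y-h, Y-f and Y-x1), beside 11.2% of all genes tested. Y-e, which stands next to Y-e3 in the cluster, was not among them. This pattern, and the genes Mrjp5 and Mrjp8 that show it here, were picked after their values had been seen. The labels do not say whether a shared number marks a shared hive.

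In the VSH and NVS libraries 5 of the 7 Mrjp genes tested had age slopes above 0 and 2 below, beside 51.2% of all genes above 0. At the Y-h end of the cluster the slope was 0.13 per day for Mrjp7 (adjusted p = 0.185), 0.077 for Mrjp8 (adjusted p = 0.195) and 0.054 for Mrjp9 (adjusted p = 0.268), the last of which was picked for its place next to Y-h after its values had been seen. All 3 had an unadjusted p under 0.05, beside 12.3% of all genes, and 0 of the 7 passed over all genes. Mrjp3, at the other end next to Y-e3, had the largest slope of the 7, at 0.16 (adjusted p = 0.672). The slope was 0.014 for Mrjp2 (adjusted p = 0.974), -0.052 for Mrjp1 (adjusted p = 0.905) and -0.13 for Mrjp5 (adjusted p = 0.710). Between VSH and NVS bees 0 of 7 Mrjp genes passed, with Mrjp8 at -0.50 (adjusted p = 0.431) and Mrjp7 at 0.64 (adjusted p = 0.541), and a median of -0.11 beside -0.0024 over all genes. The paper names Mrjp1 (spelled Mjrp1) among its genes lower in VSH bees. In limma it was at -0.78 (adjusted p = 0.794). Between foragers and nurses 0 of 9 passed, with Mrjp9 at 1.18 (adjusted p = 0.396), Mrjp3 at 1.91 (adjusted p = 0.567) and a median of 1.22, beside -0.16 for the yellow genes.

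**Figure D5:**
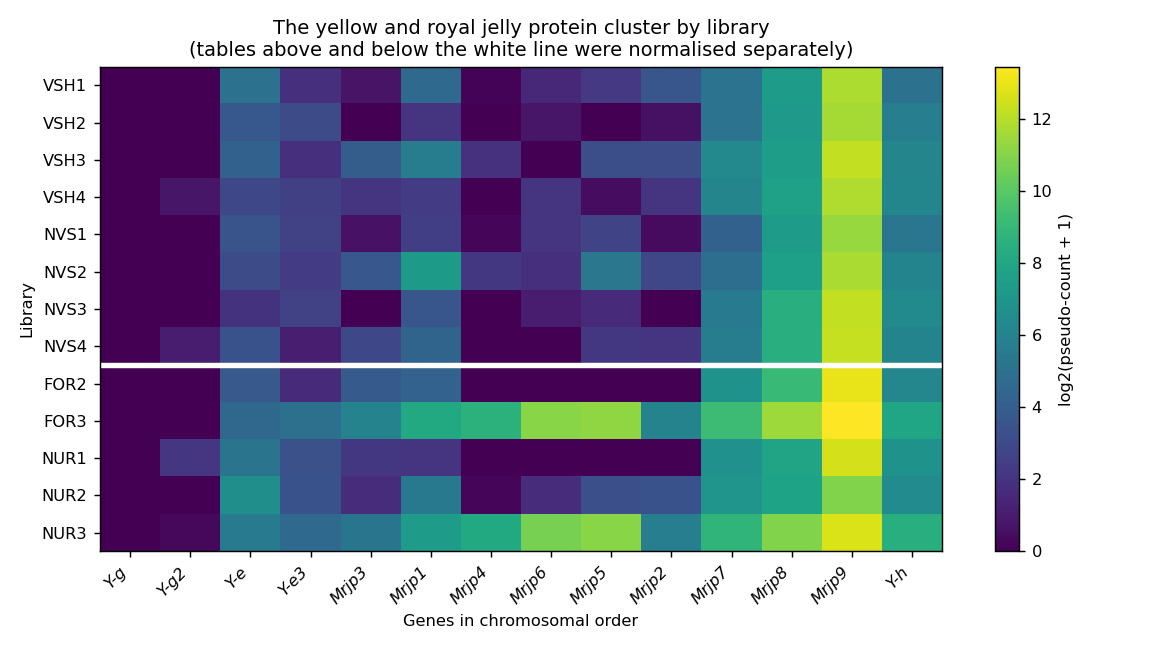
Levels on the scale of log2(pseudo-count + 1) of the yellow and royal jelly protein genes of the cluster, in chromosomal order from left to right, by library (rows; VSH, NVS, FOR and NUR from top to bottom, the tables split by a white line). Y-g is at 0 in every row, and FOR3 and NUR3 are both above FOR2, NUR1 and NUR2 in Y-e3 (30.4 and 23.5), in Y-h (241 and 360.2) and in 8 of the 9 Mrjp genes, Mrjp9 being the exception.

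The enzymes of melanin and tanning, with which yellow proteins share a pathway, were read in the same fits. Of 8 such genes, 0 passed between VSH and NVS bees, where the members with the smallest p were LOC408622, a phenylalanine hydroxylase that makes tyrosine, with 0.50 on the log2 scale (adjusted p = 0.261), and LOC552811, a laccase-5-like oxidase, at -1.24 (adjusted p = 0.354, and 0.0326 with the age-matched libraries paired). Between foragers and nurses 1 rose and 1 fell, where 0.0958% of all genes passed. An unadjusted p under 0.05 in limma was reached by 3 of the 8 between VSH and NVS bees, 4 between foragers and nurses and 5 for age. The shares over all genes were 11.2%, 13.0% and 12.3%. LOC552811 averaged 3742 ± 441 in FOR (SD, n = 2) and 218 ± 91.6 in NUR libraries (SD, n = 3), or 4.18 on the log2 scale (limma, adjusted p = 0.0202). The gene ebony, which couples dopamine to beta-alanine on the way to light cuticle, averaged 10903 ± 142 in FOR and 30796 ± 5490 in NUR libraries, a difference of -1.48 on the log2 scale (adjusted p = 0.0478, and 0.0582 with the replicate number as a block). The median over the list was 0.18 between VSH and NVS bees and 0.09 between foragers and nurses. LOC552811 and LOC408622 carry the study's own annotation and were on its lists of genes picked from these libraries. The paper also names PPO, the phenoloxidase, among its genes higher in VSH bees and among those lower in foragers. The counts of these genes are thus not independent evidence. PPO was at 0.64 for VSH over NVS (adjusted p = 0.525) and -2.33 for FOR over NUR (adjusted p = 0.103). None of the 8 passed for age, where LOC552811 had a slope of 0.19 per day (adjusted p = 0.0524) and PPO one of -0.12 (adjusted p = 0.244). Phenoloxidase is also a haemocyte gene, and the 4 haemocyte markers found, PPO among them, summed to 1517 to 2039 in FOR and 2788 to 3263 in NUR libraries. Of these 4 markers, 0 passed between foragers and nurses. Y-e and Y-x2 were likewise lower in every forager library than in every nurse library, as were 16.5% of all genes. Between VSH and NVS bees all 4 markers had log2 fold changes above 0, while Y-e was at 0.97 and Y-x2 at -0.40. The part of haemocytes in the Y-e and Y-x2 values was not tested.

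Side by side, the directions of the yellow genes in the pair of experiments were mixed. Y-e was above 0 for VSH over NVS (0.97) and below 0 for FOR over NUR (-1.66), Y-x2 was below 0 in both (-0.40 and -2.80), Y-y was below and above 0 (-0.13 and 0.92), and Y-x1 was within 0.1 of 0 in both (0.03 and -0.08). Of the other tested members, Y-b was above 0 in both (0.10 and 0.36) and Y-h below 0 in both (-0.20 and -0.23). Y-f was at -0.0092 and 0.45, and Y-e3 at 0.15 and -0.47. None of these values passed over all genes, and no test was made across the separately normalised tables.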

How the data were processed

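RNA of antennal flagella was sequenced from libraries made with a stranded kit. Per the labels and the methods, the authors used CASAVA 1.8.2, FastQC, TopHat2 with Bowtie2 2.2.3 (genome assembly 4.5), HTSeq 0.6.1p1 and edgeR 3.4.0. The deposited values are in the unit signal: edgeR pseudo-counts normalised by Relative Log Expression in each table, of which 0 above 0 are whole within 1e-06, so that reads could not be recovered, count tests were not run and depth is unknown. The strand setting of the counting is not given in the sources used here. Values below 1e-10 were set to 0.

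Values plus 1 were taken to log2 and fitted in limma 3.58.1 (R 4.3.3, eBayes with the trend option), over all genes with a sum of at least 20 (VSH and NVS) or 15 (FOR and NUR), two-sided, with Benjamini-Hochberg adjustment over those genes. The sums are the study's limits for counts, applied here to pseudo-counts. Age was fitted in days beside the group. Scripts were tested on simulated data. Deviations from group means correlated at 0.161 to 0.388 within the age-matched pairs (8133 genes), and these were taken as pairs in the block fit. Libraries not matched in age correlated at -0.253 to 0.279. VSH1 correlated more with NVS2 (0.279) than with its partner NVS1 (0.161), so the pairing rests on the ages and not on these correlations. FOR and NUR share numbers 2 and 3 only.

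The rule for named genes was every member, and of the other lists up to 4 genes past the threshold or, with none past it, the 2 with the smallest p. Beyond this rule, Mrjp genes were named for their age slopes, their place in the cluster or their pattern over libraries. PPO and Mrjp1 were also named because the paper names them. The members and lists were chosen with earlier results of these data known. A reference table matched 10485 of 13414 gene IDs and all 10 members. Lists were matched by symbol, and the symbol Dat, which 2 genes share, was left out. Per the methods, VSH and NVS bees came from 1 colony and nurses and foragers from 3 hives, while the hive behind each library is not given in the sources used here. For VSH and NVS bees p-values thus measure the spread between pools of 1 colony. Without the block or an age term, that spread includes the differences in mean age between libraries.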

Additional observations from a re-analysis of the deposited data

Results flagged for a closer look

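Among the 18 groups of 4 libraries with a value above 0, 3 held a library far from the others. The measure was the gap to its nearest neighbour over the range of the group, against Dixon's 95% limit. For draws from 1 normal distribution that limit flags about 1 in 20. The libraries of a group differ in mean age, so that rate need not hold here. Each flagged library was the youngest or the oldest of its group. Y-f was low in VSH1, at 1955 against 2603 to 2720.5 in the other VSH libraries (ratio 0.847). Y-g2 was high in VSH4, at 0.751 against 0 to 0.0324 (ratio 0.957), and in NVS4, at 1.06 against 0 to 0.0314 (ratio 0.970), both near the bottom of the scale.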

How the results depend on the processing

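The count of yellow genes past the threshold was 0 in all 3 comparisons under every alternative run, with at most 4 at an unadjusted p under 0.05. The smallest adjusted p of any member was 0.162. Counts over all genes moved. Between VSH and NVS bees 4 genes passed, against 127 with the replicate block (age-matched libraries paired), 2 without a filter, 0 without a variance trend and 0 to 11 leaving out 1 library. Between FOR and NUR 10 passed, against 6 with the replicate block, 4 with a pseudocount of 0.5, 4 without a filter, 4 at a mean of at least 10, 1 without a trend and 0 to 76 leaving out 1 library (76 without NUR2). For age 15 passed, against 33 with ranks of age, 0 without a filter, 0 without a trend, 40 with robust eBayes and 0 to 61 leaving out 1 library.

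Of 398 values of single members under an alternative, 382 kept their direction. Y-x1 (VSH over NVS) turned to -0.0079 with quantile normalisation, and the other 15 turned on 1 library left out. For VSH over NVS the log2 fold change then ran from -0.055 to 0.10 for Y-f, -0.42 to 0.040 for Y-h, -0.20 to 0.32 for Y-e3, -0.93 to 0.033 for Y-x2, -0.025 to 0.19 for Y-b and -0.023 to 0.051 for Y-x1. For FOR over NUR it ran from -2.11 to 1.18 for Y-e3, -1.06 to 0.60 for Y-h and -0.19 to 0.021 for Y-x1, and the age slope from -0.0033 to 0.042 for Y-f, -0.059 to 0.13 for Y-x2 and -0.12 to 0.019 for Y-e3. The cause was not tested. Leaving out a FOR library leaves 1, assumed to vary like the nurses. The depth of each library was not used, and with 2 FOR and 3 NUR libraries the intervals of Y-e, Y-e3, Y-h and Y-x2 are wide. The replicate block changed no call of a member.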
